A study of Homo sapiens with 12 samples.

Results

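Metallothioneins and the genes that handle zinc beside them were examined in PC9, a human lung adenocarcinoma cell line that carries an activating EGFR mutation. The genes were taken by symbol, with no threshold on a measured value, though earlier results of these data were known when the set was drawn up. It held 10 of the 62754 gene identifiers in the count table: the metallothioneins MT2A, MT1X, MT1F, MT1E, MT1G and MT1M, the zinc-sensing transcription factor MTF1, the zinc exporter SLC30A1 (ZnT1) and the zinc importers SLC39A10 (ZIP10) and SLC39A14 (ZIP14). Of these, 7 had enough reads to be tested. MT1E, MT1G and MT1M did not.

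Polyadenylated RNA was sequenced from 12 cultures of PC9 in 4 groups of 3, all derived from a subclonal PC9 line, and the 3 cultures of a group were split from 1 flask and then kept apart. TDP1 wild-type cells were sampled untreated (untreated WT), after 7 days in 1 µM erlotinib as drug-tolerant cells (DTC), and after 28 days in 1 µM erlotinib as drug-tolerant expanded cells (DTEC). Erlotinib inhibits the EGFR kinase. The fourth group was the untreated TDP1 knockout line KO2 (KO), 1 line, and TDP1 encodes an enzyme that removes topoisomerase I trapped on DNA. Because the cultures of a group came from 1 flask, p-values measure the spread between such sister cultures. The labels put every library in 1 batch, so within-batch values are the pooled values.

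Metallothioneins are small cysteine-rich proteins that bind zinc and copper and release them again. Free zinc activates MTF1, which binds metal response elements (MREs) in the promoters of metallothionein genes and of SLC30A1. SLC30A1 moves zinc out of the cell across the plasma membrane, whereas SLC39A10 and SLC39A14 bring zinc into the cytosol, and SLC39A14 also carries iron and manganese.

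The 6 metallothionein genes lie in 1 cluster on chromosome 16 (GRCh38, GENCODE 29). MT2A (ENSG00000125148) spans 56608199 to 56609497, MT1E (ENSG00000169715) 56625475 to 56627112, MT1M (ENSG00000205364) 56632233 to 56633986, MT1F (ENSG00000198417) 56657694 to 56660698 and MT1X (ENSG00000187193) 56682424 to 56684196, all on the plus strand. MT1G (ENSG00000125144) lies on the minus strand at 56666731 to 56668065. MTF1 (ENSG00000188786, 37809567 to 37859620) and SLC30A1 (ENSG00000170385, 211571568 to 211578742) are on the minus strand of chromosome 1. SLC39A10 (ENSG00000196950) is on the plus strand of chromosome 2 at 195575977 to 195737702, and SLC39A14 is placed where its values are given. Every GENCODE 29 gene that overlaps a member had 0 counts in all 12 libraries. Of the 62754 identifiers counted, 58261 were in GENCODE 29, and the others were not checked for overlap.

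Promoters are shown because they are where MTF1 acts, and they set an active pair of metallothionein genes beside a silent one and beside the exporter. The sequences are the 250 bases before a RefSeq transcription start (GRCh38.p14), 5′ to 3′ in the direction of the gene, with matches to the MRE core, TGCACNC or TGCGCNC on either strand, in capitals. The MT2A window is chr16:56608334-56608583, inside the longer GENCODE 29 gene, the MT1X window chr16:56682220-56682469, the SLC30A1 window chr1:211579162-211579411 on the minus strand and the MT1H window chr16:56669564-56669813. The MT1X window runs past the GENCODE 29 start of that gene, 56682424. The SLC30A1 window lies wholly upstream of the GENCODE 29 gene, whose 5′ end is 211578742, and the bases between them were not searched.
MT2A: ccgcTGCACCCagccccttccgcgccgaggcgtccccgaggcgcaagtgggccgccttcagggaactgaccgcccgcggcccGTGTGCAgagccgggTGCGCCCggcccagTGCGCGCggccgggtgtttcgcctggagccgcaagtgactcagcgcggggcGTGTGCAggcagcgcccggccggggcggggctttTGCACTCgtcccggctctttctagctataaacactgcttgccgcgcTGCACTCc
MT1X: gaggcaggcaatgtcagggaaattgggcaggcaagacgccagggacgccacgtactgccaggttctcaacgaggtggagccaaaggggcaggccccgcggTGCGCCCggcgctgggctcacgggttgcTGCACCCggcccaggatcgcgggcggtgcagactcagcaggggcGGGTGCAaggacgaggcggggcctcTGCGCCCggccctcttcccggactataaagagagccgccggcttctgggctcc
SLC30A1: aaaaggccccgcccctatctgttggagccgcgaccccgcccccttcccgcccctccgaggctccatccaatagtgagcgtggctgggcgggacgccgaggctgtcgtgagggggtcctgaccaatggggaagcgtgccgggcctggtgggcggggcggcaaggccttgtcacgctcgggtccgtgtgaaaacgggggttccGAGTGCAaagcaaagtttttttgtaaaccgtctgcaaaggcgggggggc
MT1H: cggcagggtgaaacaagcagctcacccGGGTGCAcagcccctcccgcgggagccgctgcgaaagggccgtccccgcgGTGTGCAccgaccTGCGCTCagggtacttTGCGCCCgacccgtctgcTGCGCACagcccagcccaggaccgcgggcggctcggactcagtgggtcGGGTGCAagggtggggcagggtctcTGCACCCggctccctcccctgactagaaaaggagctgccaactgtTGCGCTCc

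The MT2A promoter held 7 matches, MT1X 4, SLC30A1 1 (bases -49 to -43 from the start) and MT1H 8. Among 35116 RefSeq promoter windows of the same length, 24.8% had at least 1 match, 0.370% at least 4 and 0.0313% at least 7. No match was found in the window of MTF1 or in the windows of both SLC39A10 starts, which says only that these letters are not there. The AP-1 motif TGANTCA occurred once in MT2A (-104 to -98), apart from the MRE matches, and at least once in 6.57% of all windows. MT1E, MT1F, MT1G and MT1M had no entry in the promoter table, and SLC39A14 was left out of the windows examined for members. A motif match is a description of the sequence and not evidence of binding, and the MRE counts did not order the genes by their reads: MT1H, with the most matches shown here, had 0 reads in all 12 libraries.

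**Figure D1:**
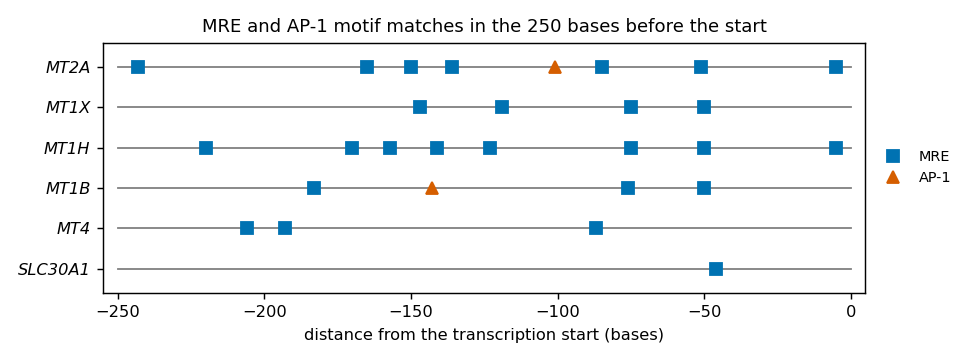
Positions of MRE core matches (squares) and AP-1 matches (triangles) in the 250 bases before the RefSeq start of 6 genes, with the distance from the start in bases on the horizontal axis. MT2A and MT1H carry 7 and 8 MRE matches along the window, MT1X carries 4, and SLC30A1 carries 1 close to the start.

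Each library held 25572691 to 38373679 estimated counts. TDP1, the gene targeted in KO, was at 28.1, 25.1 and 25.8 CPM (counts per 1000000 of the library total after TMM scaling, by the trimmed mean of M values) in the 3 untreated WT libraries and at 10.1, 11.3 and 11 CPM in KO, 41.0% of the untreated WT level (log2 fold change -1.29, SE 0.11, adjusted p 1.3e-05), and the table does not show which part of the gene the remaining reads came from. In the drug-treated wild-type cells TDP1 stood at 15.7, 12.7 and 13.5 CPM in DTC and 28.4, 25.4 and 26.1 in DTEC. Epithelial markers (EPCAM, KRT8, KRT18, KRT19, CDH1 and KRT7) averaged 285 CPM or more in every group. The leukocyte markers PTPRC, CD3E, CD14 and LYZ averaged 1.36 CPM or less, and the fibroblast markers COL1A2, PDGFRB and DCN 0.236 CPM or less. COL1A1 was the exception among the 4 fibroblast markers, at a mean of 8.30 CPM in untreated WT and 55.7 in DTC. Of the 3 endothelial markers VWF averaged 1.57 CPM or less and CDH5 27.7 to 36.7, and PECAM1 32.04 CPM in untreated WT, 8.77 in DTC and 92.1 in DTEC. Mitochondrial genes took 4.43% to 5.41% of the counts in DTC and 1.82% to 2.78% in the other groups. Genes also moved by length in DTC. The 2607 tested genes with under 2000 nt of exon, where MT2A, MT1X and MT1F fall, had a median log2 difference from untreated WT of 0.02, 0.54 and 0.36 in DTC replicates 1, 2 and 3, against 0.01, -0.17 and -0.16 for the 7238 genes of at least 5000 nt, where MTF1 and the 3 transporters fall. In DTEC and KO the same medians lay between -0.05 and 0.08. The part of these shifts in the differences given here was not tested.

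In DTC every tested member differed from untreated WT: MT1X rose, as did the scarce MT1F, and MT2A, MTF1, SLC30A1, SLC39A10 and SLC39A14 fell (edgeR quasi-likelihood test, adjusted p over 17115 genes under 0.05). The count was 2 higher and 5 lower of 7 tested. MT1F passed the count filter only through the drug-treated libraries, so its direction was fixed by entering the test and the count supports nothing about it. The 3 DTC libraries did not overlap the 3 untreated WT libraries in 7 of 7, and neither did they in 68.9% of all tested genes. The erlotinib response was broad. Of all tested genes 67.3% passed in DTC, 34% higher and 33.3% lower, with a median log2 fold change of 0.06, so 7 of 7 is to be read against a background of about 67.3%. In DTEC 4 of 7 differed from untreated WT, MT1F and MT1X higher and SLC39A10 and SLC39A14 lower, against 52.3% of all genes (26% higher, 26.3% lower, median 0.02), and the libraries of those 4 did not overlap, against 62.4% of all genes. In KO 1 of 7, MT2A, differed from untreated WT, against 4.31% of all genes (2.76% higher, 1.55% lower, median -0.01), and 3 of 7 had libraries that did not overlap, against 35.7% of all genes. DTC, DTEC and KO are all set against the same 3 untreated WT libraries. In these bulk cultures, fewer cells with a transcript and less of it per cell cannot be told apart.

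The balance of rises and falls moved with how libraries were scaled. With total counts alone in place of TMM, the median of all genes moved by 0.35 in DTC, 0.17 in DTEC and 0.07 in KO, and rises as a percent of all calls went from 50.5 to 68.4 in DTC, from 49.7 to 63.7 in DTEC and from 64.1 to 78.8 in KO. With TMM computed over 909 genes with under 1000 nt of exon the DTC median moved by -0.22, rises made up 41.1% of the DTC calls and 88.5% of the KO calls, with a KO median moved by 0.11. With upper quartile scaling the DTC median moved by 0.29 and the DTEC median by 0.11, and rises made up 65.0% of the DTC calls. Member changes are therefore given on the TMM scale, with those that crossed the threshold under another scaling named beside them.

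**Figure D2:**
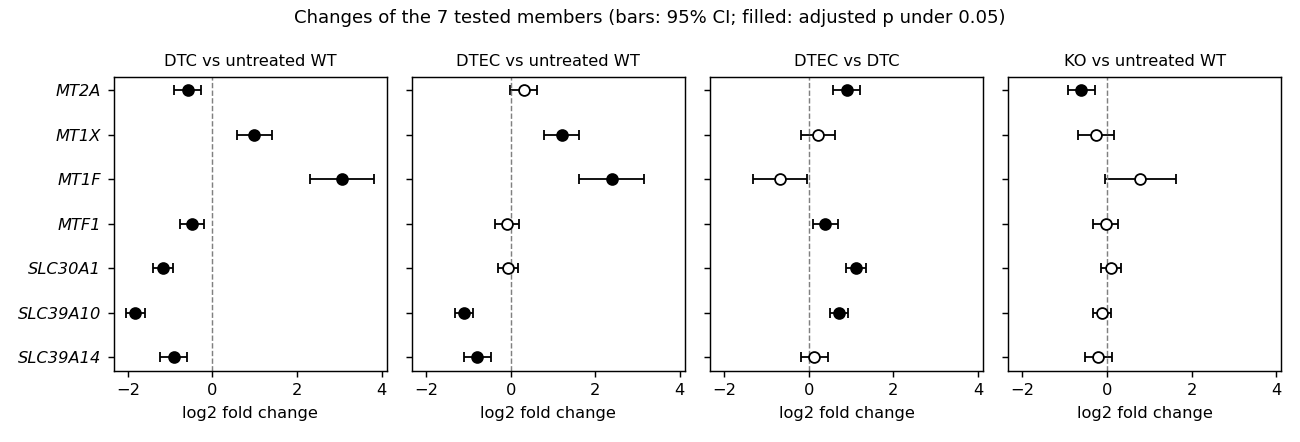
Log2 fold change of the 7 tested members in each comparison, with its 95% confidence interval as a bar and adjusted p under 0.05 as a filled point. In DTC all 7 points are filled, with MT1F and MT1X to the right of 0 and the other 5 to the left, and in KO only MT2A is filled; MT1F was tested only because of its reads in the drug-treated libraries.

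MT2A was the main metallothionein of these cells. It stood at 51.7, 52.3 and 48.7 CPM in untreated WT, 28.0, 38.9 and 35.0 among DTC libraries, 50.4, 60.1 and 78.9 among DTEC libraries and 33.6, 34.1 and 32.3 in KO. The DTC and KO libraries all lay below the untreated WT libraries, and the DTEC libraries spread from within the untreated WT range to well above it. MT2A fell in DTC to 66.7% of the untreated WT level (log2 fold change -0.58, SE 0.15, adjusted p 0.00319). That call was lost with total counts alone (-0.23, adjusted p 0.189) and with upper quartile scaling (-0.29, adjusted p 0.109). From DTC to DTEC it rose by 0.89 on the log2 scale (SE 0.15, adjusted p 0.000175). Against untreated WT the DTEC difference of 0.31 did not pass (95% CI -0.01 to 0.63, adjusted p 0.0927). It passed with total counts alone (0.48, adjusted p 0.0147), with upper quartile scaling (0.43, adjusted p 0.0319) and without DTEC replicate 1 (0.47, adjusted p 0.016). Without DTEC replicate 3, the highest library, it was 0.11 (adjusted p 0.503).

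MT2A was also the member called in KO, at 65.5% of the untreated WT level (log2 fold change -0.61, SE 0.15, adjusted p 0.0338). The adjusted p rose above the threshold when any 1 of the 6 libraries was left out (0.106 to 0.172), with total counts alone (0.0542) and with TMM over short genes (0.113), and it was 7.72e-05 at its lowest among the alternatives. The log2 value itself stayed between -0.62 and -0.50 in all of them.

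MT1X, a zinc-inducible isoform, was a minor transcript in untreated WT at 4.63, 2.83 and 3.4 CPM. DTC had 5.85, 7.80 and 8.0 CPM, DTEC 8.25, 8.48 and 8.49, and KO 2.49, 3.14 and 3.48. All 6 drug-treated libraries exceeded all 6 untreated ones. The rise was 1.99-fold in DTC (log2 0.99, SE 0.19, adjusted p 0.000393) and 2.32-fold in DTEC (log2 1.21, SE 0.19, adjusted p 0.000124), and both calls held under all 13 alternatives (log2 0.76 to 1.35 in DTC, the lowest with TMM over short genes, and 1.08 to 1.45 in DTEC). DTEC and DTC did not differ past the threshold (0.22, 95% CI -0.18 to 0.62), and neither did KO and untreated WT (-0.25, 95% CI -0.68 to 0.18).

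MT1F was barely transcribed without drug, with 6, 4 and 10 reads in untreated WT and 9, 10 and 15 in KO. It had 40, 61 and 70 reads in DTC and 36, 24 and 44 in DTEC, so it entered the tested set only through the drug-treated groups, and its change from untreated WT is given as a description with no p. The drug-treated libraries stood at 0.917 to 2.05 CPM and the untreated ones of both genotypes at 0.135 to 0.415, without overlap. The fitted change was 3.07 in DTC (SE 0.35) and 2.39 in DTEC (SE 0.36) on the log2 scale. DTEC was lower than DTC by a log2 value of -0.69 that did not pass (adjusted p 0.0646). It passed with total counts alone (0.0218), with upper quartile scaling (0.0246) and without DTC replicate 1 (0.0393). The KO libraries all lay above untreated WT, yet the difference of 0.79 did not pass (95% CI -0.05 to 1.62, adjusted p 0.332).

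The other metallothioneins examined were silent at this depth. MT1E had 1 read, in DTC replicate 1, and MT1G and MT1M had 0 in all 12 libraries. A fixed list of other metallothionein genes and pseudogenes (MT1A, MT1B, MT1H, MT1L, MT3, MT4, MT1DP, MT1JP and MT1HL1), 9 in number, also had 0 reads throughout. Any metallothionein gene or pseudogene outside that list was not examined. A count of 0 allows a level of up to 0.0824 to 0.115 CPM per library, the value of 3 counts, for counting error only. Near-identical metallothionein sequences can make a read fit several genes. Every deposited metallothionein value was a whole number, as were those of SLC30A1, SLC39A10 and SLC39A14, whereas 5 of the 12 MTF1 values were.

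Summing the 13 MT1 and MT2A genes removes any sharing of reads among them, though not with a gene outside the sum. The sum was 54.7 ± 2.13 CPM (SD, n = 3) in untreated WT, 42.9 ± 6.89 among DTC libraries, 72.6 ± 14.7 among DTEC libraries and 36.7 ± 0.771 in KO. MT2A took 93.0% ± 1.57 of it in untreated WT, 79.1% ± 1.31 among DTC libraries, 86.6% ± 2.36 among DTEC libraries and 90.8% ± 1.54 in KO. The share of MT1X was 6.60% ± 1.53, 16.8% ± 0.867, 11.9% ± 2.14 and 8.27% ± 1.4 in the same order, and that of MT1F 0.371%, 4.03%, 1.51% and 0.958%. On the TMM scale the 3 DTC libraries (35.2, 48.5 and 45.04 CPM) lay below untreated WT, and the 3 DTEC libraries (59.7, 69.5 and 88.6 CPM) above it. The log2 ratio of the mean sums was -0.35 in DTC against untreated WT. With total counts alone the median of all genes moved by 0.35 in DTC, as large a step the other way. The lower DTC sum thus holds for the TMM scale only.

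The makeup of the pool does not rest on scaling between libraries, since a ratio of 2 genes within a library has none. MT1X reads came to 5.42% to 8.95% of MT2A reads in untreated WT, 20.05% to 22.9% among DTC libraries, 10.8% to 16.4% among DTEC libraries and 7.41% to 10.8% in KO. The DTC libraries stood apart from all others, and the lowest DTEC library met the highest KO library. Such a ratio shows unequal change of the 2 genes and not which of them changed.

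**Figure D3:**
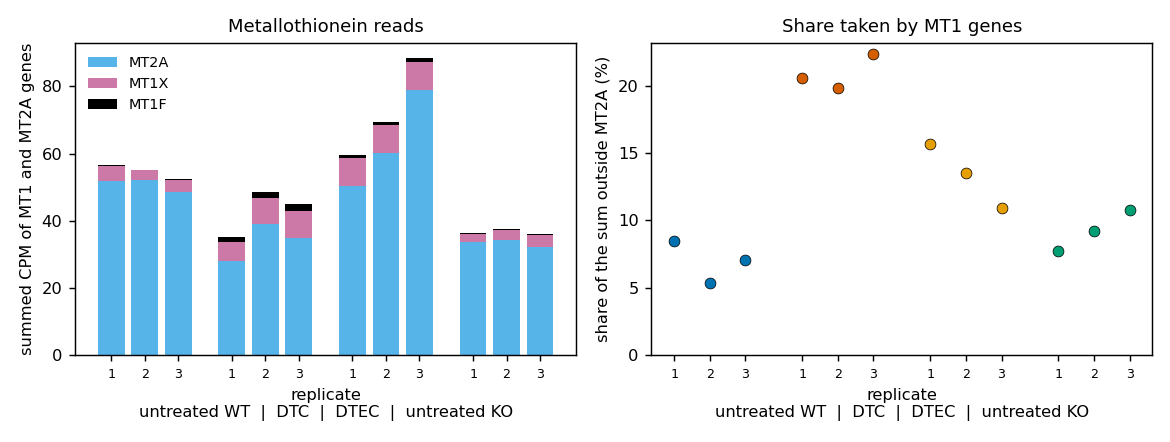
Left, summed CPM of the 13 MT1 and MT2A genes in each library, stacked by gene (bars start at 0; the other 10 genes add at most 1 read). Right, percent of that sum outside MT2A, where the 3 DTC libraries lie highest and untreated WT and KO overlap at the bottom.

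MTF1, the transcription factor that reads out zinc for these promoters, stood at 37.5, 39.0 and 38.3 CPM in untreated WT, 34.1, 24.8 and 23.3 among DTC libraries, 40.8, 35.1 and 31.9 among DTEC libraries and 37.0, 37.2 and 38.04 in KO. DTC lay below untreated WT in all 3 libraries, with replicate 1 nearest to it, and the other groups overlapped. The fall in DTC was -0.48 on the log2 scale (SE 0.13, adjusted p 0.00546), and it was not called with total counts alone (-0.13, adjusted p 0.401), with upper quartile scaling (-0.20, adjusted p 0.178) or without DTC replicate 3 (-0.33, adjusted p 0.0597). MTF1 was 0.39 higher in DTEC than in DTC (SE 0.13, adjusted p 0.0227) with overlapping libraries, and that call was lost under 7 of the 13 alternatives (adjusted p 0.0563 to 0.202 in those), among them leaving out DTC replicate 2 (0.126), DTC replicate 3 (0.153), DTEC replicate 1 (0.126) or DTEC replicate 2 (0.0563). Against untreated WT the DTEC difference was -0.09 (95% CI -0.38 to 0.20) and the KO difference -0.03 (95% CI -0.32 to 0.25).

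SLC30A1, the exporter and itself a known MTF1 target, fell in DTC and was back near the untreated level in DTEC. It stood at 126, 117 and 123 CPM in untreated WT, 60.9, 52.1 and 50.7 among DTC libraries, 128, 124 and 100.3 among DTEC libraries and 137, 130 and 124 in KO. The 3 DTC libraries lay far below the other 9, which overlapped each other. DTC was at 44.8% of the untreated WT level (log2 fold change -1.16, SE 0.11, adjusted p 4.26e-07), and DTEC was 2.15-fold above DTC (log2 1.11, SE 0.11, adjusted p 1.58e-06), under every alternative for both. The DTEC difference from untreated WT was -0.05 (95% CI -0.29 to 0.18), and the KO difference 0.10 (95% CI -0.14 to 0.33). Within libraries there were 27.1 to 41.3 SLC30A1 reads for each MT1X read in untreated WT and 6.33 to 10.4 among DTC libraries. The range was 11.8 to 15.5 among DTEC libraries and 35.5 to 55.01 in KO. The reads of SLC30A1 and MT1X, both with MRE matches in the windows shown, thus did not move in step in DTC. MT1X has under 2000 nt of exon and SLC30A1 at least 5000 nt, classes whose medians parted in DTC replicates 2 and 3. The part of that shift in this ratio was not tested.

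SLC39A10 had the lowest log2 fold change of the 7 tested members in both DTC and DTEC on the TMM scale. It stood at 88.2, 83.7 and 96.2 CPM in untreated WT, 28.8, 22.9 and 24.3 among DTC libraries, 41.8, 42.0 and 41.0 among DTEC libraries and 86.3, 78.8 and 83.5 in KO. The groups formed 3 separate levels, untreated cells of both genotypes at the top, DTEC between and DTC lowest. DTC was at 28.3% of the untreated WT level (log2 fold change -1.82, SE 0.10, adjusted p 2.8e-09) and DTEC at 46.5% (-1.10, SE 0.10, adjusted p 8.29e-07). DTEC rose above DTC by 0.72 (SE 0.10, adjusted p 4.23e-05). All 3 calls held under every alternative. KO differed from untreated WT by -0.11 (95% CI -0.32 to 0.10).

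SLC39A14 (ENSG00000104635; chromosome 8, 22367249 to 22434129, plus strand) fell in DTC and stayed down in DTEC. It stood at 121, 123 and 124 CPM in untreated WT, 81.7, 52.2 and 61.0 among DTC libraries, 82.1, 72.7 and 58.5 among DTEC libraries and 101, 109 and 108 in KO. All drug-treated libraries lay below all untreated ones, and DTC and DTEC overlapped. DTC was at 53.0% of the untreated WT level (log2 fold change -0.92, SE 0.15, adjusted p 8.47e-05) and DTEC at 58.0% (-0.79, SE 0.15, adjusted p 0.000533), both under every alternative. The DTEC difference from DTC was 0.13 (95% CI -0.19 to 0.45). It passed without DTC replicate 1 (0.31, adjusted p 0.0298). The KO libraries lay below untreated WT without overlap, but the difference of -0.21 (95% CI -0.53 to 0.11, adjusted p 0.53) did not pass, except when those 6 libraries were fitted alone (-0.18, adjusted p 0.0337).

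**Figure D4:**
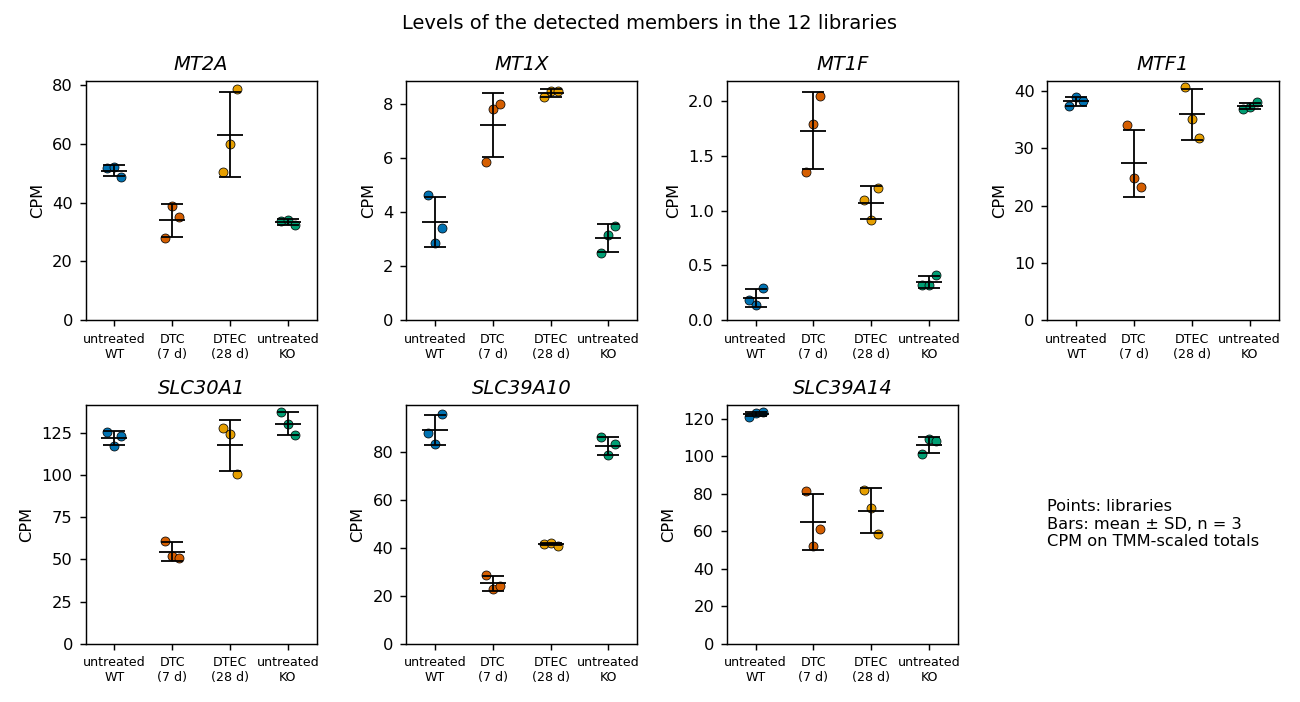
CPM of the 7 tested members in the 12 libraries (points), with the mean and SD of each group of 3 (bars). MT1X and MT1F are higher in every drug-treated library, SLC39A10 and SLC39A14 lower in every one, and SLC30A1 is lower in the 3 DTC libraries than in the other 9.

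Between 7 and 28 days of drug, 4 members rose past the threshold (MT2A, MTF1, SLC30A1 and SLC39A10) and 3 did not pass, against 55.4% of all genes called (28.8% higher, 26.6% lower, median log2 fold change -0.01). Rises made up 51.9% of these calls, but 37.4% with total counts alone (median of all genes moved by -0.19), 38.7% with upper quartile scaling (-0.17) and 64.2% with TMM over short genes (0.20). The libraries did not overlap for MT2A, SLC30A1, SLC39A10 and the 2 uncalled MT1 genes, 5 of 7, against 56.7% of all genes. The reads of the 2 importers changed unequally within libraries. There were 0.679 to 0.779 SLC39A10 reads for each SLC39A14 read in untreated WT, 0.352 to 0.440 among DTC libraries, 0.509 to 0.701 among DTEC libraries and 0.722 to 0.853 in KO. For each SLC30A1 read there were 0.702 to 0.784 SLC39A10 reads in untreated WT, 0.440 to 0.478 among DTC libraries, 0.327 to 0.409 among DTEC libraries and 0.606 to 0.675 in KO.

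The drug-treated libraries of a group also differed among themselves by class of gene. DTC replicate 1 had the lowest MT2A, MT1X and MT1F of its group and the highest MTF1, SLC30A1, SLC39A10 and SLC39A14. DTEC replicate 3 had the highest MT2A, MT1X and MT1F and the lowest of the other 4. In DTC replicate 1 the 2607 genes with under 2000 nt of exon stood at a median of -0.25 from their DTC mean and the 7238 genes of at least 5000 nt at 0.14, on the log2 scale. In DTEC replicate 3 these medians were 0.06 and -0.05. Whether length accounts for any of the members' spread was not tested.

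Levels can be compared between genes per kilobase of transcript, here CPM divided by the length of the longest principal transcript. In untreated WT the order was MT2A (64.8 ± 2.46 CPM per kb, SD, n = 3), SLC39A14 (26.4 ± 0.273), SLC30A1 (22.3 ± 0.796), SLC39A10 (16.5 ± 1.17), MT1X (8.05 ± 2.04), MTF1 (4.80 ± 0.0964) and MT1F (0.291 ± 0.115), with no 2 neighbours closer than their SDs. In DTC, MT2A still led at 43.2 ± 7.04 CPM per kb. MT1X (16.0 ± 2.65), SLC39A14 (14 ± 3.26) and SLC30A1 (9.97 ± 1.02) followed, each within the SDs of the next, and SLC39A10 (4.66 ± 0.563), MTF1 (3.43 ± 0.740) and MT1F (2.51 ± 0.514) came last, likewise. In DTEC, MT2A reached 80.3 ± 18.5 CPM per kb, SLC30A1 21.5 ± 2.74 and MT1X 18.7 ± 0.300, the last 2 within their SDs. In KO, SLC30A1 (23.8 ± 1.22) and SLC39A14 (22.9 ± 0.929) were within their SDs. By group means MT1X thus stood below the 3 transporters per kb in untreated WT and among or above them in the drug-treated cells. MT1X has under 2000 nt of exon and the 3 transporters at least 5000 nt, classes whose medians parted in DTC replicates 2 and 3. The part of that shift in the DTC order was not tested.

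The other transporters of both zinc families were counted from lists of family members. Among the other exporters, 7 of 10 were tested (not SLC30A2, SLC30A8 and SLC30A10), and 2 were higher and 1 lower in DTC, 1 higher and 1 lower in DTEC, with median log2 fold changes of 0.10 and -0.01 beside 0.06 and 0.02 for all genes, of which 67.3% and 52.3% were called. With total counts alone 5 passed in DTC, and with TMM over short genes 1. SLC30A4, an endosomal exporter, stood at 2.66, 2.09 and 2.74 CPM in untreated WT and 3.82, 3.12 and 4.31 in DTC (log2 fold change 0.58, adjusted p 0.0129). That call was lost without the count filter (0.063), with TMM over short genes (0.166) and without untreated WT replicate 2 (0.0511). SLC30A7, which loads zinc into the Golgi, was 0.48 higher in DTEC (adjusted p 0.0112), lost with TMM over short genes (0.114). TMEM163, a zinc efflux protein, was lower in DTC (-0.82, adjusted p 0.00166) and DTEC (-0.88, adjusted p 0.00154). SLC30A9, named after its value was seen, was the other exporter higher in DTC (0.32, adjusted p 0.00651). In KO the edgeR test called 0 of the 7 exporters, DESeq2 called 0, and 0 had an unadjusted p under 0.05.

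The importers other than SLC39A10 and SLC39A14 split in direction. Of 12, 10 were tested (not SLC39A5 and SLC39A12), and 3 were higher and 3 lower in DTC and again in DTEC, 6 of 10 each time beside 67.3% and 52.3% of all genes, with medians of -0.14 and -0.004. SLC39A13, a Golgi zinc transporter, stood at 9.71, 17.0 and 13.6 CPM in untreated WT, 38.8, 48.2 and 52.3 in DTC and 23.3, 24.1 and 27.5 in DTEC, a rise of 1.79 (adjusted p 4.66e-07) and 0.90 (adjusted p 0.00055) on the log2 scale. SLC39A4, the intestinal zinc importer, was lower in DTEC, at 21.2, 23.1 and 33.3 CPM, against 41.2, 76.3 and 67.3 in untreated WT (log2 fold change -1.25, adjusted p 0.00693). SLC39A2 was close to silent, with 2 reads over the 3 untreated WT libraries, and had 72 reads over the 3 DTEC libraries, a ratio of 36.9 per scaled total (95% interval 9.85 to 311 for counting error only). It passed the count filter only through DTEC, so it is given with no p, and its place among the 3 importers higher in DTEC was fixed by entering the test.

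A further 5 importers are named here after their values were seen. SLC39A8 rose in DTC (0.62, adjusted p 9.79e-05) and fell in DTEC (-0.87, adjusted p 1.07e-05), from 42.0, 35.3 and 38.7 CPM in untreated WT to 59.5, 54.3 and 65.1 and then 20.2, 22.5 and 20.7. SLC39A11 rose in both (0.88 and 1.12, adjusted p 7.09e-07 and 2.24e-07) and in KO (0.51, adjusted p 0.00474, 0.0747 with TMM over short genes). SLC39A6, a close relative of SLC39A10, fell in DTC (-0.79, adjusted p 9.26e-05). It was also lower in KO (-0.60, adjusted p 0.0174), a call that was lost with TMM over short genes (0.35) and without any 1 of the 6 libraries (adjusted p 0.0543 to 0.106). SLC39A11 and SLC39A6 were the 2 of 10 called in KO. SLC39A3 was lower in DTC (-0.67, adjusted p 0.00636) and DTEC (-0.66, adjusted p 0.00979), and SLC39A9 in DTC (-0.23, adjusted p 0.0416).

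**Figure D5:**
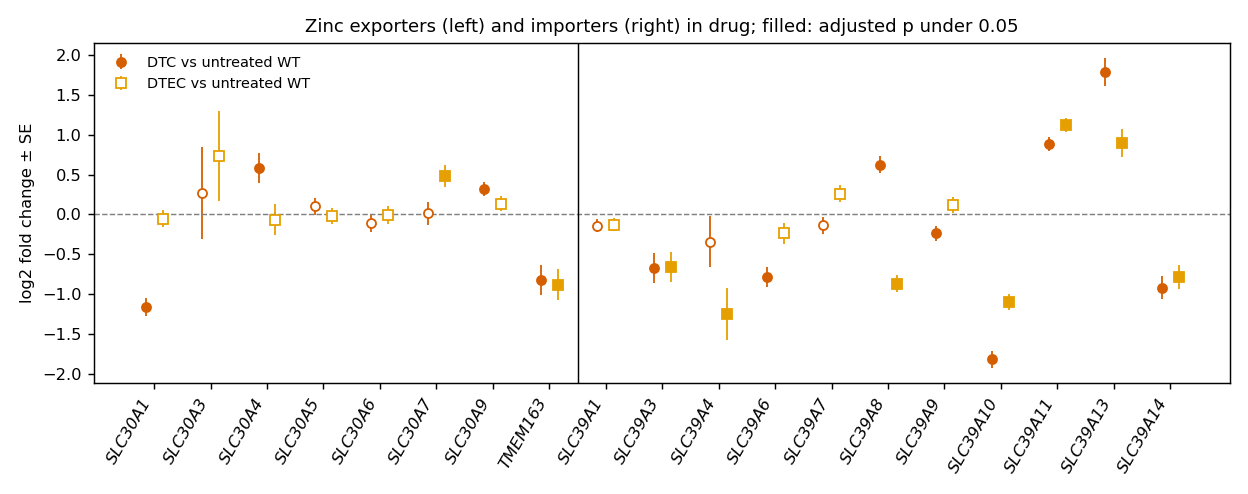
Log2 fold change ± SE of zinc exporters (left of the line) and importers (right) in DTC (circles) and DTEC (squares) against untreated WT, filled where adjusted p is under 0.05. SLC30A1 and SLC39A10 show the largest DTC falls of their families and SLC39A13 the largest DTC rise among those drawn; SLC39A2 is left out because it was near 0 reads without drug.

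The genes nearest to each member in profile were found by the root-mean-square (RMS) difference of centred log2 CPM over the 12 libraries, among genes averaging at least 10 CPM, as a description with no test. For SLC39A10 they were BUB1, a mitotic checkpoint kinase (0.08 log2 units), EIF3B, a translation initiation subunit (0.08), and ECT2, a cytokinesis factor (0.08), of 9801 compared. BUB1 averaged 154 CPM in untreated WT, 45.7 among DTC libraries, 80.5 among DTEC libraries and 149 in KO. SLC30A1 was nearest to RAD21, a cohesin subunit (0.09), AGFG1 (0.10) and TMEM209 (0.10), and SLC39A14 to KIF21A, a kinesin (0.09), GNL2 (0.09) and SRRD (0.10). MT2A and MT1X had no neighbour as close. The nearest to MT2A were GPX2, a glutathione peroxidase, at 0.18, the ribosomal protein gene RPS23 at 0.18 and the oxysterol receptor gene NR1H3 at 0.19. The nearest to MT1X were BNIP3L, a mitophagy receptor gene, at 0.19, MPZL2 at 0.19 and LMBRD1 at 0.20. MT1X had 71 to 309 reads per library and averaged under the 10 CPM asked of the compared genes. What this low depth adds to its distances was not tested. GPX2 averaged 40.4 CPM in untreated WT, 31.2 among DTC libraries, 58.2 among DTEC libraries and 27.0 in KO.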

How the data were processed

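Per the labels, a strand-marking polyA kit (TruSeq Stranded mRNA) and 101 bp paired reads were used for the 12 PC9 libraries. The authors deposited 1 table of expected counts, estimated reads per gene with no scaling to depth. The submitters' processing notes name RSEM 1.3.1, Bowtie2 2.5.2, DESeq2 1.40.2 and GRCh38; the annotation and strand setting are not given in the sources used here. Estimates were rounded before edgeR 4.0.16 (limma 3.58.1, R 4.3.3) was run: filterByExpr by group, 17115 genes with at least 99.891% of each library's counts, TMM scaling, 1 quasi-likelihood fit of all 12 libraries with robust dispersions, Benjamini-Hochberg adjustment, calls at an adjusted p under 0.05. The common biological coefficient of variation was 14.6%. SE is the log2 fold change divided by the square root of F, and CPM uses TMM-scaled totals. Log2 CPM for profiles and length classes used a prior count of 2. Transcript lengths and coordinates are from GENCODE 29, promoters from RefSeq.

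All members are named. Related genes are named as up to 3 called genes per list with the largest change in DTC or DTEC, and genes outside that rule are marked. The members and lists were chosen with earlier results of these data known. Alternatives were other scalings, DESeq2 1.42.0, no count filter, the compared groups fitted alone, a replicate block, and each library left out. The length classes of under 2000 and at least 5000 nt were added after the data had been seen. Libraries of 1 group differed by 3.75 or more times counting noise (chi-square per gene), so none was a repeat deposit.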

Additional observations from a re-analysis of the deposited data

Results flagged for a closer look

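Levels differed between 7 and 28 days of erlotinib for 4 members, by the direct test of DTEC against DTC. No untreated library is labelled with a time, so time in drug and time in culture cannot be told apart. The log2 differences were 0.89 for MT2A, 0.39 for MTF1, 1.11 for SLC30A1 and 0.72 for SLC39A10, all higher at 28 days. MT2A and SLC30A1 were below untreated WT at 7 days and did not differ from it past the threshold at 28 days, while SLC39A10 was below it at both. For MT2A this rests on the TMM scale. With total counts alone and upper quartile scaling, the edgeR test did not call MT2A at 7 days (adjusted p 0.189 and 0.109). It called MT2A higher than untreated WT at 28 days (adjusted p 0.0147 and 0.0319). The MTF1 difference rests on overlapping libraries and was lost under 7 of 13 alternatives.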

How the results depend on the processing

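Of 364 recomputed member changes, 324 kept their direction and side of the threshold, 20 lost a call, 8 gained one and 12 changed sign, all 12 in differences that had not passed. The number of members called in KO went from 1 to 0 with total counts alone, to 0 with TMM over genes under 1000 nt, to 2 with the compared groups fitted alone, and to between 0 and 0 with any 1 library left out (edgeR; DESeq2 called 1), and the cause was not tested. Sign changes with total counts alone and upper quartile scaling were seen in DTEC for MTF1 (0.0777 and 0.0238) and SLC30A1 (0.116 and 0.0609), and between DTEC and DTC for SLC39A14 (-0.0550 and -0.0392). In KO they were seen for MTF1 with total counts alone (0.0361) and with TMM over short genes (0.0797), and for SLC39A10 with the latter (0.00263). With 1 library left out, SLC30A1 in DTEC ranged from -0.102 to 0.0412, SLC39A14 between DTEC and DTC from -0.0472 to 0.310 and MTF1 in KO from -0.0315 to 0.00391. Summing the MT1 and MT2A genes moved the DTC value of MT2A to -0.35 on the TMM scale, and the sum was not recomputed under another scaling. Of 624 recomputed changes of named related genes, 579 kept their call and 45 lost it. The changes of SLC30A9, SLC39A3, SLC39A9, CCS, SCO2, ATOX1, FKBP5, PER1, HMOX1, HSPH1, DNAJB1 and HSPA1A were not among those recomputed. Other importers called in KO went from 2 to 0 with TMM over short genes and to 1 without any 1 library, other exporters called in DTEC from 2 to 1 with TMM over short genes, and glucocorticoid genes called in KO from 1 to 3 with the compared groups alone. Over all genes KO calls numbered 738, and 2656 with the compared groups alone, 1149 with DESeq2, 1147 without the count filter, 425 with TMM over short genes and 321 to 426 with 1 library left out. Per kb, 13 of 28 levels moved by over 1 SD with unscaled totals. The deviations of same-numbered libraries had correlations of -0.01 to 0.18, and those of differently numbered ones -0.19 to 0.12. These values do not settle whether the numbers pair libraries. The replicate block left 7, 4, 4 and 1 members called in DTC, DTEC, DTEC against DTC and KO. Over all genes it called 11775, 9255, 9732 and 887, against 11520, 8955, 9480 and 738 without it. Depth limits MT1F and the silent metallothioneins, whose counts were 70 or fewer.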

Other observations

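Metallothioneins also bind copper. Of 10 copper-handling genes, 2 were higher and 2 lower in DTC, where 67.3% of all genes were called, and 2 were higher and 3 lower in DTEC, where 52.3% were (medians 0.19 and -0.09, beside 0.06 and 0.02 for all genes). With total counts alone 8 passed in DTC, with upper quartile scaling 7, and without DTC replicate 1 or 2 likewise 7. SLC31A2, a copper transporter of endosomes and lysosomes, stood at 5.67, 4.11 and 4.64 CPM in untreated WT, 30.6, 28.4 and 30.9 in DTC and 8.01, 7.26 and 7.72 in DTEC, a rise of 2.64 (adjusted p 6.95e-10) and 0.67 (adjusted p 0.000572) on the log2 scale. ATP7A, the copper-exporting ATPase, rose in DTEC to 46.3, 43.2 and 36.7 CPM from 14.4, 14.1 and 14.9 (log2 fold change 1.54, adjusted p 2.01e-06). SCO1, which delivers copper to cytochrome oxidase, fell in DTC (-1.01, adjusted p 8.79e-07) and DTEC (-0.48, adjusted p 0.00127). Named after their values were seen, CCS was higher in DTC (0.57, adjusted p 0.00124), SCO2 lower in DTC and DTEC (-0.697 and -0.997, adjusted p 0.0108 and 0.00167) and ATOX1 lower in DTEC (-0.79, adjusted p 0.000839). In KO edgeR called 0 of the 10, DESeq2 0, and 0 had an unadjusted p under 0.05; 3 passed with the compared groups fitted alone.

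Other known inducers of metallothionein transcription are glucocorticoids and metal or proteotoxic stress. Of 8 genes listed for the glucocorticoid receptor and its targets, 7 were tested (not ZBTB16), and 3 were higher and 2 lower in both DTC and DTEC, 5 of 7 beside those same shares (medians -0.08 and 0.44). DUSP1, a MAP kinase phosphatase, rose by 2.65 in DTC (adjusted p 5.77e-09) and 0.81 in DTEC (adjusted p 0.000698), TSC22D3 (GILZ) by 1.80 and 2.29 (adjusted p 1.49e-07 and 6.17e-08) and the kinase SGK1 by 2.24 and 1.94 (adjusted p 1.49e-09 and 2.37e-08), on the log2 scale. FKBP5 (-1.66 and -0.74, adjusted p 9.43e-08 and 0.000335) and PER1 (-0.51 and -1.21, adjusted p 0.00944 and 2.37e-05), named after their values were seen, were lower in DTC and DTEC. SGK1 was also higher in KO (0.78, adjusted p 0.00168). Of 9 metal and proteotoxic stress genes, 1 was higher and 8 lower in DTC, beside 33.3% of all genes lower (median -0.84), and 4 were lower and 5 did not pass in DTEC, beside 26.3% lower (median -0.26; 2 lower with TMM over short genes). The glutathione and redox genes SRXN1 (-1.63, adjusted p 1.65e-08), GCLM (-1.37, adjusted p 2.89e-06) and SLC7A11 (-1.19, adjusted p 0.000174) fell in DTC. HMOX1 was the gene that was higher (0.30, adjusted p 0.0218; named after its value was seen). In DTEC SRXN1 was lower (-0.74, adjusted p 7.47e-05), as were the chaperone genes HSPH1 (-1.13, adjusted p 2.46e-06), DNAJB1 (-0.35, adjusted p 0.00349) and HSPA1A (-0.50, adjusted p 0.0386), likewise named afterwards; HSPA1A has a near-identical copy, HSPA1B, which makes its reads uncertain. In KO edgeR called 0 of the 9, DESeq2 0, and 2 had an unadjusted p under 0.05; 3 passed with the compared groups fitted alone and 1 without the count filter. No hypothesis was tested on these lists.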
